A study of Mus musculus with 16 samples.

Results

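Gene expression in the hippocampus of mice injected with the MEK inhibitor SL327 alone was compared with that of vehicle treated mice. The comparison used every array whose label names the inhibitor without kainic acid (3 arrays) and every vehicle array of the same time point (3 arrays), 6 of the 16 arrays of the series. All mice were male C57BL/6 wildtype mice of 3 months, and RNA of 1 hippocampus of 1 mouse was hybridized to each exon array. SL327 mice received 50 mg/kg of the inhibitor by intraperitoneal injection, in dimethylsulfoxide (DMSO) mixed with PBS. Vehicle mice are labelled as injected with PBS, whereas the treatment protocol names DMSO with PBS, so that an effect of the solvent and one of the inhibitor cannot be told apart if the labels are right. The labels give 1 h after treatment for both groups, while the protocol speaks of corresponding time points, so the exact interval from SL327 to dissection is uncertain. For brain sections of the same treatments, dissection is described as 2 h after SL327 and 1 h after vehicle, and if this held for the arrays, time since injection and the inhibitor cannot be told apart. The other groups served as a background or as a second setting, namely SL327 given 1 h before kainic acid (3 arrays, 50 mg/kg and 20 mg/kg), kainic acid alone (3 arrays, 20 mg/kg) and mice that were not injected (4 arrays, time 0 h).

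MEK is the kinase that phosphorylates and activates ERK, the last kinase of the Ras, Raf, MEK and ERK cascade. Active ERK switches on early response genes through ETS factors, SRF and CREB, and among them are its own inhibitors, the Sprouty and Spred proteins and the dual specificity phosphatases. In hippocampal neurons the cascade carries signals from synapses to the nucleus, and kainic acid, an agonist of glutamate receptors that causes seizures, drives it strongly. The values below are log2 intensities of a probe set, so that a difference of 1 is a doubling, and differences are SL327 minus vehicle unless stated. Replicates are separate mice, and in tissue RNA fewer cells of a type and less RNA per cell cannot be told apart.

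SL327 alone was followed by many small rises and few falls. Of 8520 probe sets tested, 467 were higher (5.48%) and 71 lower (0.833%) in SL327 than in vehicle at an adjusted p under 0.05 in limma, which moderates the spread of each probe set by that of all others. At an unadjusted p under 0.05 the numbers were 1510 higher and 399 lower. The median rise was 0.28 (range 0.15 to 1.51) and 49 of the 467 reached 0.5 or more. The median fall was -0.31 and 11 of the 71 fell by 0.5 or more, as the volcano plot shows. Among all probe sets the 3 SL327 arrays lay above the 3 vehicle arrays for 25.9% and below them for 8.57%. The share of rises differed little with expression level, from 4.88% in the lowest to 6.29% in the highest of 4 equal classes of intensity.

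**Figure D1:**
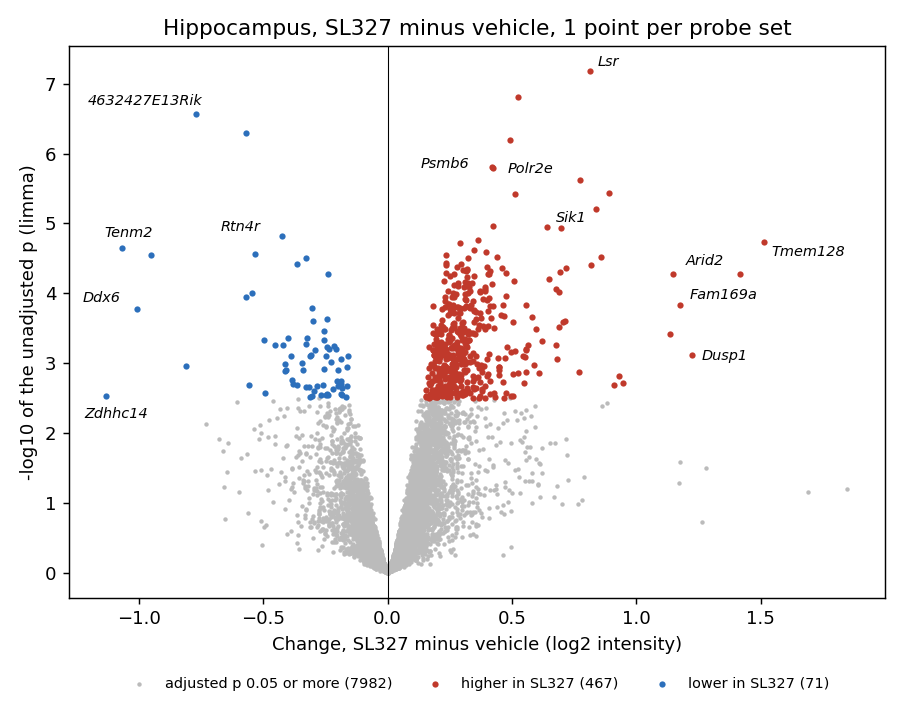
Each point is 1 of 8520 probe sets, with the log2 change (SL327 minus vehicle) on the x axis and -log10 of the unadjusted limma p on the y axis. The 467 higher probe sets (red) outnumber the 71 lower ones (blue), and Lsr has the smallest p.

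The balance of rises and falls depended on the scale of the arrays. Over all probe sets the median difference was 0.04, and 5390 of 8520 differences were positive. With each array centred on the median of all deposited values, 344 probe sets were higher and 116 lower, and after quantile normalization 281 and 142. The numbers also depended on single arrays. Without SL327 replicate 3 there were 87 higher and 9 lower, without SL327 replicate 2 there were 243 and 24, and without SL327 replicate 1 there were 202 and 60. Without vehicle replicate 1 there were 135 higher and 19 lower, without vehicle replicate 2 there were 293 and 24, and without vehicle replicate 3 there were 103 and 21. Of the 57 called genes named here, 19 to 35 missed the threshold when 1 of these arrays was left out, and none changed direction.

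The untreated mice served as another control, set against the same 3 SL327 arrays. Against them 305 probe sets (3.58%) were higher and 136 (1.6%) lower in SL327. Between vehicle and untreated mice no probe set passed in limma, although 92 were higher and 477 lower in vehicle at an unadjusted p under 0.05.

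Targets of ERK showed little change in unstimulated mice. Map2k1, which encodes MEK1 and is a target of the inhibitor, had 8.57, 8.63 and 8.61 in SL327 mice against 8.46, 8.42 and 8.34 in vehicle mice (difference 0.20, SE 0.06, limma adjusted p 0.0491). All 3 SL327 values lay above the vehicle values, but leaving out any single one of the 6 arrays ended the call (adjusted p 0.0768 to 0.179). It was the only one of 15 tested genes of the cascade to pass, against 5.66% of all genes that were higher. Map2k2, encoding MEK2, differed by 0.05 (adjusted p 0.588), and Mknk1, a kinase downstream of ERK, by -0.15 (adjusted p 0.0573).

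Among 16 feedback inhibitors of ERK none passed the threshold, against 0.806% of all genes that were lower. Of them 12 were below vehicle, and the median difference was -0.11, beside 0.04 for all 7565 genes. Spry2, a Sprouty protein that dampens receptor tyrosine kinase signalling, had 6.89, 6.81 and 6.84 in SL327 mice against 7.04, 7.08 and 7.10 in vehicle mice (difference -0.23, SE 0.08, adjusted p 0.0981). Spry4 had 7.72, 7.89 and 8.01 in SL327 mice against 8.27, 8.11 and 8.17 in vehicle mice (difference -0.31, SE 0.12, adjusted p 0.143). The SL327 values of both genes lay below all vehicle values. Those of Spry2 were, in both groups, under the limit of the intensity filter, the median of the annotated probe sets of an array (7.43 to 7.53).

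Dusp6, the phosphatase that inactivates ERK in the cytoplasm, had 7.04, 7.11 and 7.24 in SL327 mice against 7.63, 7.42 and 7.33 in vehicle mice (difference -0.33, SE 0.12, adjusted p 0.133). Its SL327 values were under the limit of the intensity filter (7.43 to 7.53), as were 7.42 and 7.33 in vehicle mice. Spred1 differed by -0.18 (adjusted p 0.130) and Dusp4, a nuclear phosphatase of MAP kinases, by -0.12 (adjusted p 0.234). Against untreated mice Spry2 (-0.31, adjusted p 0.0279) and Spry4 (-0.44, adjusted p 0.0401) passed the threshold, and with them 3 of the 16 inhibitors were lower, beside 1.63% of all genes. Errfi1, an inhibitor of the EGF receptor, went the other way, with 8.88, 8.92 and 9.07 in SL327 mice against 8.63, 8.54 and 8.45 in vehicle mice (difference 0.42, SE 0.14, adjusted p 0.102).

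**Figure D2:**
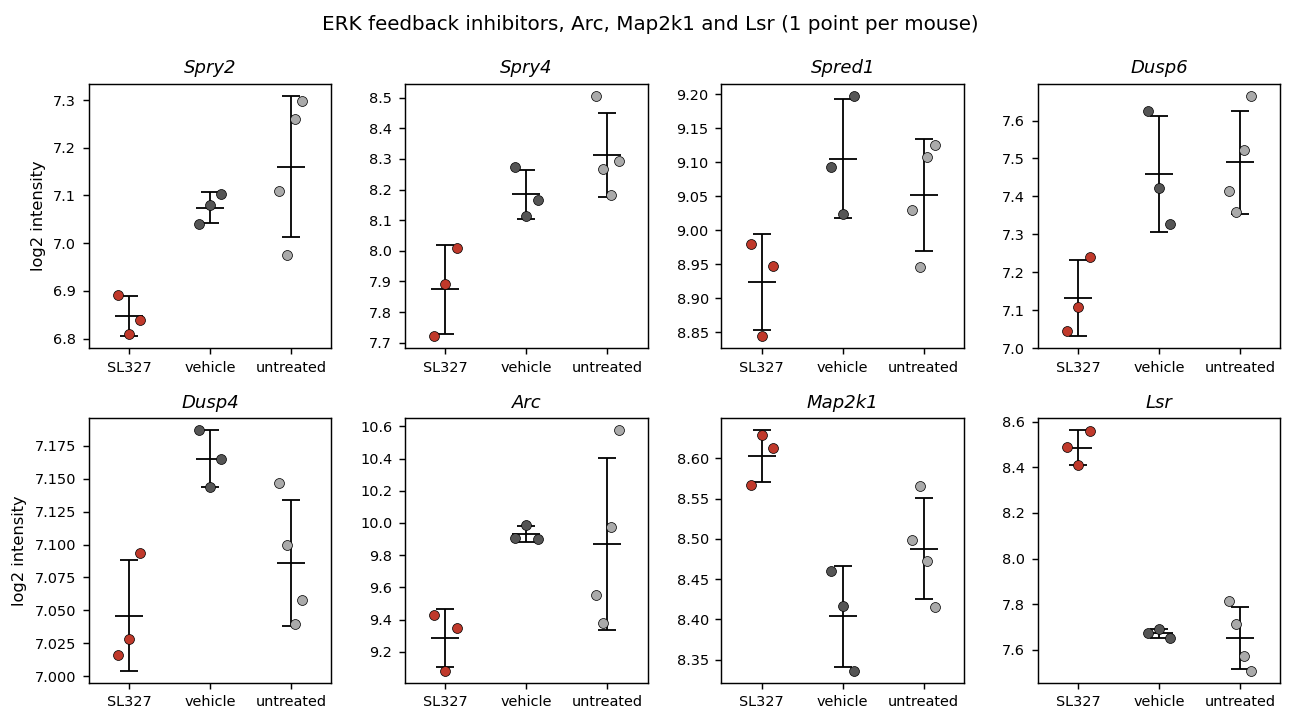
Points are log2 intensities of single mice for 8 genes, and black lines are group means with SD (SL327 n = 3, vehicle n = 3, untreated n = 4). The SL327 points of Spry2, Spry4, Spred1, Dusp6, Dusp4 and Arc lie below the vehicle points, while those of Map2k1 and Lsr lie above them.

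Of 18 genes listed as a readout of MEK output only 7 were tested. None of the 7 passed either, and their median difference was -0.15. Spry2, Spry4, Dusp4 and Dusp6 are in this list and among the feedback inhibitors, so the counts of the 2 lists overlap. More of the same genes passed in the mice given kainic acid. Between SL327 with kainic acid and kainic acid alone 6 of these 7 and 7 of the 16 feedback inhibitors were lower, against 5.92% of all genes. There Spry2 had 7.05, 7.04 and 6.86 in SL327 with kainic acid against 8.60, 8.52 and 8.45 in kainic acid (difference -1.54, SE 0.08, adjusted p 3.92e-08). Of these values only those in kainic acid alone were above the limit of the intensity filter, so the gene was dim in the mice given SL327. Transcription factors that ERK acts on were not called in SL327 alone (0 of 14), with Elk1 at 0.23 (adjusted p 0.0829) and Srf at 0.20 (adjusted p 0.0826).

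Activity regulated genes did not fall together in the absence of seizures. Of 17 immediate early transcription factors 14 were above vehicle, and 1 of them, Per1, passed the threshold. Of all 7565 genes 4862 were above vehicle and 5.66% were called higher. Egr1 differed by 0.24 (adjusted p 0.181) and Egr3 by 0.26 (adjusted p 0.194). Among 23 synaptic and secreted effectors Dusp1, Sik1 and the neuropeptide precursor Vgf were higher and none was lower. Arc, a regulator of AMPA receptor traffic at synapses, had 9.43, 9.08 and 9.34 in SL327 mice against 9.90, 9.99 and 9.90 in vehicle mice (difference -0.64, SE 0.28, adjusted p 0.185). The 3 SL327 values of Arc lay below the vehicle values, and 1 of them was within the range of the untreated mice (9.38 to 10.57) while the others were below it.

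Genes known to respond to glucocorticoids, the hormones released in stress, were mostly above vehicle. Of 17 tested members 7 were higher and none was lower, 16 were above vehicle, and the median difference was 0.32, beside 5.66% of all genes higher and a median of 0.04. The median of the list per array, relative to the vehicle mean, was 0.33, 0.27 and 0.29 in SL327 mice against 0.01, 0.03 and -0.03 in vehicle mice and -0.03 to -0.01 in untreated mice. The 3 SL327 arrays thus lay apart from all 7 arrays of both control groups. The 7 higher members were Dusp1, Mt2, Ddit4, Cdkn1a, Per1, Arrdc2 and Sgk1. The list was chosen with earlier results of these data known, and the study names Dusp1 and Cdkn1a as raised by the inhibitor in these samples. Its share of higher genes is therefore a description and not a test of the list. Their number was 2 to 6 with 1 array left out and lowest without vehicle replicate 3. Several of these genes also respond to other signals, such as cAMP, metals or DNA damage.

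Dusp1 inactivates MAP kinases in the nucleus. It had 9.52, 10.03 and 10.21 in SL327 mice against 8.49, 8.85 and 8.76 in vehicle mice (difference 1.22, SE 0.29, adjusted p 0.0229), and untreated mice ranged from 8.63 to 9.33. The groups did not overlap, but the adjusted p ranged from 0.0352 to 0.104 with 1 array left out, and was highest without SL327 replicate 3. Mt2 encodes a metallothionein, a protein that binds zinc and copper. It had 9.87, 10.07 and 9.90 in SL327 mice against 9.32, 9.29 and 9.15 in vehicle mice (difference 0.69, SE 0.12, adjusted p 0.00899). Ddit4, an inhibitor of mTOR signalling, had 9.16, 9.17 and 8.98 in SL327 mice against 8.56, 8.69 and 8.39 in vehicle mice (difference 0.56, SE 0.11, adjusted p 0.0125).

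Cdkn1a encodes the cell cycle inhibitor p21 and is also a target of p53. It had 7.93, 8.06 and 7.99 in SL327 mice against 7.46, 7.61 and 7.4 in vehicle mice (difference 0.51, SE 0.10, adjusted p 0.0156). Arrdc2, an arrestin domain protein, had 7.79, 7.59 and 7.62 in SL327 mice against 7.4, 7.31 and 7.27 in vehicle mice (difference 0.34, SE 0.06, adjusted p 0.01). Both genes were above every vehicle and untreated mouse. Sgk1, a kinase that regulates ion channels and transporters, had 8.28, 8.26 and 8.23 in SL327 mice against 8.0, 8.0 and 7.81 in vehicle mice (difference 0.32, SE 0.07, adjusted p 0.0178). Per1, a component of the circadian clock, had 9.28, 9.33 and 9.44 in SL327 mice against 8.88, 8.95 and 8.93 in vehicle mice (difference 0.43, SE 0.12, adjusted p 0.0465). Against untreated mice the difference of Per1 was 0.24 and did not pass (adjusted p 0.223), and its adjusted p was 0.0836 to 0.160 when a single array was left out.

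Sik1, a kinase that restrains CREB by phosphorylating its coactivators, was outside this list. It had 8.56, 8.80 and 8.90 in SL327 mice against 8.06, 8.06 and 8.22 in vehicle mice (difference 0.64, SE 0.10, adjusted p 0.00704). Its values were above every vehicle and untreated mouse, and it passed in each of the 6 fits that lacked 1 array. Of the genes that the study names as raised by the inhibitor alone, which were chosen on these samples, Dusp1, Cdkn1a and Sik1 passed. Neat1, a long non-coding RNA of nuclear paraspeckles, differed by 0.00 (adjusted p 0.998) in 1 probe set, which was not assigned to its short or its long transcript, so that a change of the long one alone was not tested. Col6a5, a collagen chain, differed by 0.01 (adjusted p 0.957) in its brightest probe set and by -0.34 (adjusted p 0.154) in another. Further probe sets of Col6a5 were below the intensity filter and were not tested. Atf3, a stress induced transcription factor, was below the intensity filter with 6.33, 6.57 and 6.64 in SL327 mice against 6.33, 6.38 and 6.32 in vehicle mice.

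**Figure D3:**
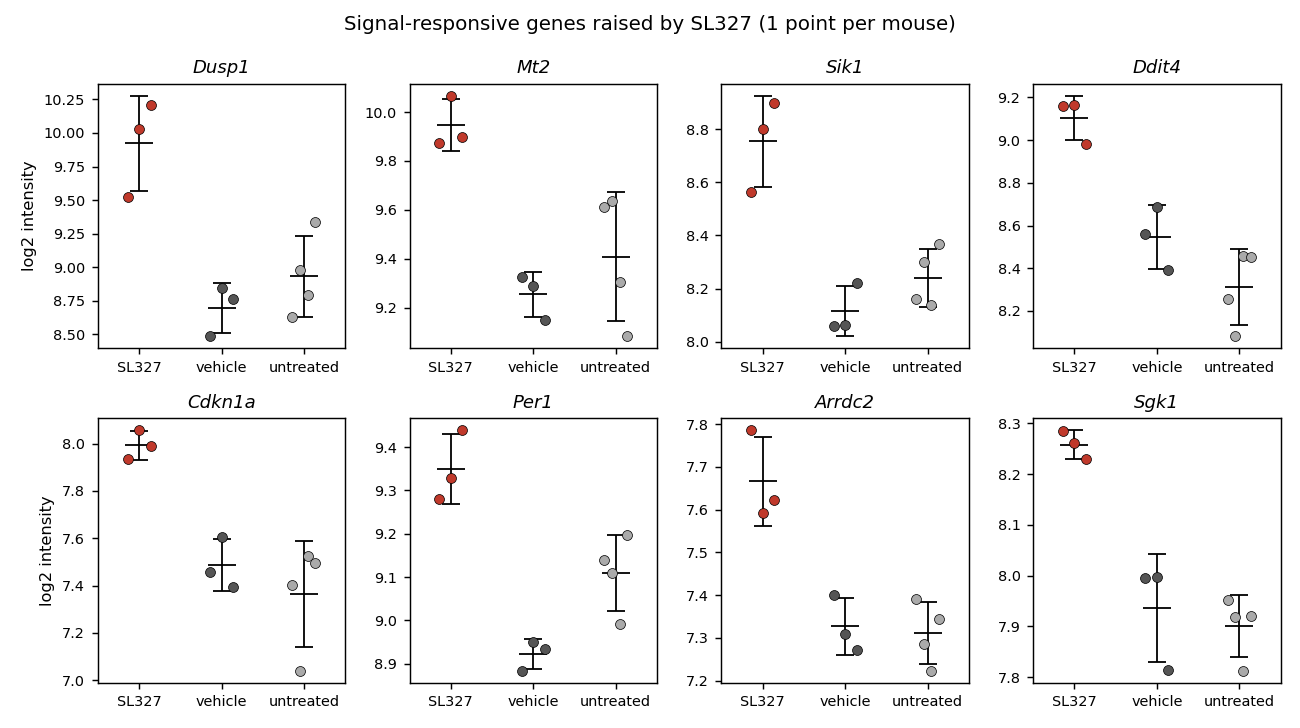
Points are log2 intensities of single mice for 8 genes, and black lines are group means with SD (SL327 n = 3, vehicle n = 3, untreated n = 4). In each panel the 3 SL327 points lie above all vehicle points, by 0.32 for Sgk1 to 1.22 for Dusp1 between the means.

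Promoter sequences of 4 of these genes are shown because their known control elements can be read in them. They are RefSeq windows of 300 bases on GRCm38.p6, from 250 bases before an annotated start to 50 after it, printed 5′ to 3′ on the gene's strand. The windows lie at chr17:26508423-26508722 (minus strand) for Dusp1, chr10:21993640-21993939 (plus strand) for Sgk1, chr11:69098699-69098998 (plus strand) for Per1 and chr8:94172368-94172667 (plus strand) for Mt2. Capitals mark the cAMP response element TGACGTCA and the E-box CACGTG in Dusp1, and the palindromic glucocorticoid response element (AGAACA and TGTTCT with 3 bases between them) in Sgk1. They mark the shorter site TGACG and the E-box in Per1, and TGCNCNC in Mt2, each searched on both strands. TGCNCNC is a looser pattern than the core of metal response elements, so not every marked stretch in Mt2 need be such a core.
Dusp1: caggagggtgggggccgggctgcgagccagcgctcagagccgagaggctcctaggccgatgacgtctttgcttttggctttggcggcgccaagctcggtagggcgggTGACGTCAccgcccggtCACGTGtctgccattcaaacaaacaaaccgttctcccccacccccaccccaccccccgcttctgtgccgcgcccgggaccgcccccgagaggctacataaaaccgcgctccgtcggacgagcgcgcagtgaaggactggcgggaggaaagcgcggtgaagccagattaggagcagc
Sgk1: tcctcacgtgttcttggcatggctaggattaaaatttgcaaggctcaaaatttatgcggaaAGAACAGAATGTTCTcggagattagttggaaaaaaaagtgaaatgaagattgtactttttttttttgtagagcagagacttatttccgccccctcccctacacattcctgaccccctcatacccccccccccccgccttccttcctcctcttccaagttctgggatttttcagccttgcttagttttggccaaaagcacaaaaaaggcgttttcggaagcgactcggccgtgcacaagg
Per1: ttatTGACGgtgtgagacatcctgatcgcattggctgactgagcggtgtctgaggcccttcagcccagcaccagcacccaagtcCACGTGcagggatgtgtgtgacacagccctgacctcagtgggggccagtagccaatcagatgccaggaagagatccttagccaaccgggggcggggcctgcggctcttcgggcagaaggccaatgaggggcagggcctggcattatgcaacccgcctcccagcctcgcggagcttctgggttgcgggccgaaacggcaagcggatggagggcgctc
Mt2: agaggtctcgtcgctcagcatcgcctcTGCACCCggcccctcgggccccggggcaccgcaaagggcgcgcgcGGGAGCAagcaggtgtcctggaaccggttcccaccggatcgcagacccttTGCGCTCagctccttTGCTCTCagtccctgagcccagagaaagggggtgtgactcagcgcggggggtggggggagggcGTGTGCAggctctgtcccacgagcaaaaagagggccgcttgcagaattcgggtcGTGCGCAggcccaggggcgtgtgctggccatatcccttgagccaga

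Among 32851 promoter windows of this length TGACGTCA was found in 1.79%, the shorter TGACG, which is contained in it, in 20.8%, and CACGTG in 7.15%. The glucocorticoid palindrome was found in 3 windows (0.00913%), of which the one of Sgk1 was 1, and AGAACA alone in 19%. TGCNCNC was found at least 1 time in 51% of the windows. The window of Mt2 held 6 matches, and the number of matches was not compared with that in other windows. In Dusp1 the cAMP response element began 143 bases before the start and the E-box 126 bases before it. In Sgk1 the palindrome began 189 bases before the start. Sgk1 has 6 annotated starts and Per1 has 2, the window with the palindrome is shown for Sgk1 and the one with the E-box for Per1, and the arrays do not tell which start was used. The 2 windows of Cdkn1a held none of these letters, and those of Arrdc2 and Ddit4 held TGCNCNC only. A match describes these letters and does not show that a factor was bound.

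Among called probe sets whose arrays did not overlap, the largest rises beside that of Dusp1 were led by genes near the limit of the intensity filter, the median of the annotated probe sets of an array (7.43 to 7.53). Tmem128, a membrane protein, had 7.85, 7.84 and 8.08 in SL327 mice against 6.19, 6.68 and 6.36 in vehicle mice (difference 1.51, SE 0.24, adjusted p 0.00899). Arid2, a DNA binding subunit of the PBAF chromatin remodeller, had 7.61, 7.52 and 7.79 in SL327 mice against 6.40, 5.92 and 6.34 in vehicle mice (difference 1.42, SE 0.25, adjusted p 0.00899). Fam169a had 7.85, 7.89 and 7.78 in SL327 mice against 6.70, 6.71 and 6.58 in vehicle mice (difference 1.18, SE 0.23, adjusted p 0.0125). In all of them every SL327 mouse was above every vehicle and untreated mouse. All 3 were under the filter in each vehicle and untreated array, as were Commd1 and Igsf10. These genes were tested because of arrays with the inhibitor or kainic acid, and their differences start from dim values. Arid2 was above the filter only in the 3 arrays of SL327 alone. It was thus tested because of the group in which it is high, and its call is not independent of the filter. Of the 467 higher probe sets 54 had no vehicle array above the filter, and of the 71 lower ones 13 had no SL327 array above it.

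Lsr had the smallest p of all probe sets. It encodes a receptor for lipoproteins that also builds tricellular junctions, among others at the blood-brain barrier. It had 8.49, 8.41 and 8.56 in SL327 mice against 7.67, 7.69 and 7.65 in vehicle mice (difference 0.81, SE 0.08, adjusted p 0.000561), and untreated mice ranged from 7.51 to 7.81. It was the only one of the 57 called genes named here that kept its call under all alternatives that tested its probe set. These were 23 for Lsr, beside 24 for genes such as Polr2e. Polr2e, a subunit shared by the nuclear RNA polymerases, had 9.63, 9.65 and 9.59 in SL327 mice against 8.80, 8.95 and 8.82 in vehicle mice (difference 0.77, SE 0.10, adjusted p 0.00259). The 3 SL327 mice were closer to each other than to any control.

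Further rises were those of Commd1 (1.15), which acts in copper transport and endosomal sorting, the ubiquitin ligase gene Hecw1 (0.95), Cacfd1 (0.93), the orphan receptor gene Gpr25 (0.91), Lyrm9 (0.89), Tmem181a (0.86), Igsf10 (0.84), the antiviral helicase gene Znfx1 (0.82) and Ccn2 (0.77), a matricellular protein and SRF target. Their adjusted p values were 0.00319 for Lyrm9 to 0.0405 for Gpr25. Against untreated mice the differences of Commd1, Hecw1, Cacfd1, Gpr25, Lyrm9 and Ccn2 were smaller and did not pass (adjusted p 0.0635 for Commd1 to 0.284 for Lyrm9).

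Falls were led by 3 genes. Zdhhc14, which encodes an enzyme that attaches palmitate to proteins, had 7.4, 6.65 and 6.66 in SL327 mice against 7.86, 8.15 and 8.10 in vehicle mice (difference -1.13, SE 0.32, adjusted p 0.0490). Tenm2, a teneurin of synaptic adhesion, had 8.70, 8.21 and 8.10 in SL327 mice against 9.28, 9.55 and 9.37 in vehicle mice (difference -1.07, SE 0.17, adjusted p 0.00899). Ddx6, an RNA helicase of processing bodies, had 9.34, 9.06 and 8.46 in SL327 mice against 9.83, 10.03 and 10.02 in vehicle mice (difference -1.01, SE 0.20, adjusted p 0.0125). All 3 fell in every SL327 mouse, and replicate 1 lay closest to the vehicle mice in each.

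Rtn4r encodes the Nogo receptor, which limits axon growth and was the only one of 8 tested genes of that system to pass, beside 0.806% of all genes lower. It had 7.48, 7.33 and 7.33 in SL327 mice against 7.79, 7.84 and 7.80 in vehicle mice (difference -0.42, SE 0.07, adjusted p 0.00869). Among the other falls were Rps24 of the small ribosomal subunit (-0.81), the splicing regulator Hnrnph3 (-0.53), 2900026A02Rik (-0.49), the pseudogene Gm5088 (-0.45) and the transcription factor Zeb2 (-0.41). Against untreated mice Rps24 differed by -0.25 (adjusted p 0.469) and Gm5088 by -0.13 (adjusted p 0.447). Zdhhc14, Rtn4r, Rps24 and Hnrnph3 had no SL327 array above the intensity filter. Rps24 was above it in 2 vehicle arrays and in no untreated one.

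Long non-coding RNAs were found more among the falls than among the rises. Of 179 probe sets of such genes 9 were lower (5.03%) and 4 higher (2.23%), whereas of 7898 probe sets of protein coding genes 57 were lower (0.722%) and 441 higher (5.58%). Against untreated mice 13 of the 179 probe sets of long non-coding RNAs were lower and 2 higher. Of the 7898 of protein coding genes 118 were lower and 295 higher there, and of all probe sets 1.6% were lower and 3.58% higher. The difference between the classes was not tested. 5330434G04Rik had 9.58, 9.59 and 9.53 in SL327 mice against 10.60, 10.43 and 10.52 in vehicle mice (difference -0.95, SE 0.16, adjusted p 0.00899). 4632427E13Rik had 6.70, 6.74 and 6.82 in SL327 mice against 7.58, 7.39 and 7.60 in vehicle mice (difference -0.77, SE 0.09, adjusted p 0.000781). It was above the intensity filter in 2 vehicle and 3 untreated arrays only, so it was tested because of control arrays. Cdr1os, a transcript of the Cdr1 locus, had 9.31, 8.95 and 8.93 in SL327 mice against 9.62, 9.65 and 9.62 in vehicle mice (difference -0.57, SE 0.11, adjusted p 0.0115).

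In these 3 transcripts the SL327 mice lay below all 7 control mice. Also lower were 9530059O14Rik (-0.55), 1700006F04Rik (-0.41) and A330023F24Rik (-0.41). The higher ones included Gas5 (0.29, adjusted p 0.0219), a host of small nucleolar RNAs that in human cells binds the glucocorticoid receptor. Lncpint, known as lincPint, had 8.89, 8.62 and 8.66 in SL327 mice against 8.98, 9.23 and 8.93 in vehicle mice (difference -0.32, SE 0.16, adjusted p 0.257).

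Single probe sets of a gene often stood alone. Of 517 called probe sets with 1 gene 55 belonged to a gene with another tested probe set, and for 8 of the 55 another one was called the same way. For 37 of the 55 most of the other probe sets differed in the same direction, and none was called in the opposite one. The other probe set of Tenm2 differed by 0.02, that of Lsr by 0.18, that of Ddx6 by -0.09, that of Lyrm9 by 0.13 and that of Hecw1 by 0.07, and none of these passed. Zdhhc14 had others at -0.01, -0.51 and -0.64. Fam169a had 4 others, of which 1 was higher (1.13, adjusted p 0.0178) and the rest were at 0.88, -0.03 and -0.04. The second probe set of 5330434G04Rik was lower too (-0.56, adjusted p 0.0405), whereas the others of 4632427E13Rik, at -0.22 and -0.04, did not pass. Nor did those of Gm5088, at 0.20, and 2900026A02Rik, at -0.03. On exon arrays such probe sets can read different exons or transcripts, which was not tested.

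In lists of protein synthesis and energy metabolism most members did not pass. Of 48 proteins of the mitochondrial ribosome 10 were higher and none lower, 36 were above vehicle, and the median was 0.11, beside 5.66% of all genes higher, 4862 of 7565 above vehicle and a median of 0.04. Mrpl9 had 8.25, 8.36 and 8.37 in SL327 mice against 7.83, 7.91 and 7.87 in vehicle mice (difference 0.45, SE 0.09, adjusted p 0.0138). The number of higher genes was 4 with arrays centred on the median of all deposited values, and 1 without SL327 replicate 3 or without vehicle replicate 3. Of 45 subunits of the respiratory chain 5 were higher and 34 above vehicle (median 0.06), among them Uqcrc1 (0.19) of complex III and Ndufa9 (0.29) of complex I, and this number was 2 after quantile normalization and 0 without SL327 replicate 2, SL327 replicate 3 or vehicle replicate 3.

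The counts in the following lists stand beside 5.66% of all genes higher and 0.806% lower, and differences from these shares were not tested. Of 19 proteasome subunits Psmb6 and Psma7 were higher. Psmb6, a catalytic subunit, had 7.87, 7.76 and 7.93 in SL327 mice against 7.38, 7.43 and 7.48 in vehicle mice (difference 0.42, SE 0.05, adjusted p 0.00194). Of 16 cytosolic ribosomal proteins Rpl17 (0.51) and Rpl28 (0.47) were higher and Rps24 was lower. Of 18 subunits of RNA polymerases Polr2e and Polr3e (0.24) were higher, and of 20 genes of SWI/SNF remodellers Arid2 and Actl6b (0.40), a neuronal subunit. Arid2 was tested only because of the arrays of SL327 alone. Of 12 stress and p53 targets Cdkn1a, Ddit4 and the amino acid synthesis gene Asns (0.23, adjusted p 0.0472) were higher, with Ppp1r15a at 0.42 (adjusted p 0.166). Of 131 zinc finger genes of the Zfp series 8 were higher and none lower (median 0.02), a share near that of all genes. None of 12 heat shock chaperones and none of 14 genes of cholesterol synthesis passed, with medians of 0.05 and 0.10.

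Of 25 splicing factors 2 were higher and 3 lower, beside 5.66% and 0.806% of all genes, and the other 20 did not pass. Srsf3 (0.26, adjusted p 0.0196) and Srsf6 (0.29, adjusted p 0.0467), which bind exonic enhancers, were higher. Srsf5 (-0.40, adjusted p 0.0195), Hnrnph1 (-0.25, adjusted p 0.0231) and Sfpq (-0.26, adjusted p 0.0404) were lower. No member passed without SL327 replicate 2, without SL327 replicate 3, without vehicle replicate 1 or without vehicle replicate 3. Receptors and channels changed little, with 1 of 10 GABA receptor genes higher and none of 14 glutamate receptor or 25 potassium channel genes called. Gabra3, encoding the alpha-3 subunit of GABA-A receptors, had 10.89, 10.74 and 10.99 in SL327 mice against 10.20, 10.21 and 10.52 in vehicle mice (difference 0.56, SE 0.13, adjusted p 0.0211).

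**Figure D4:**
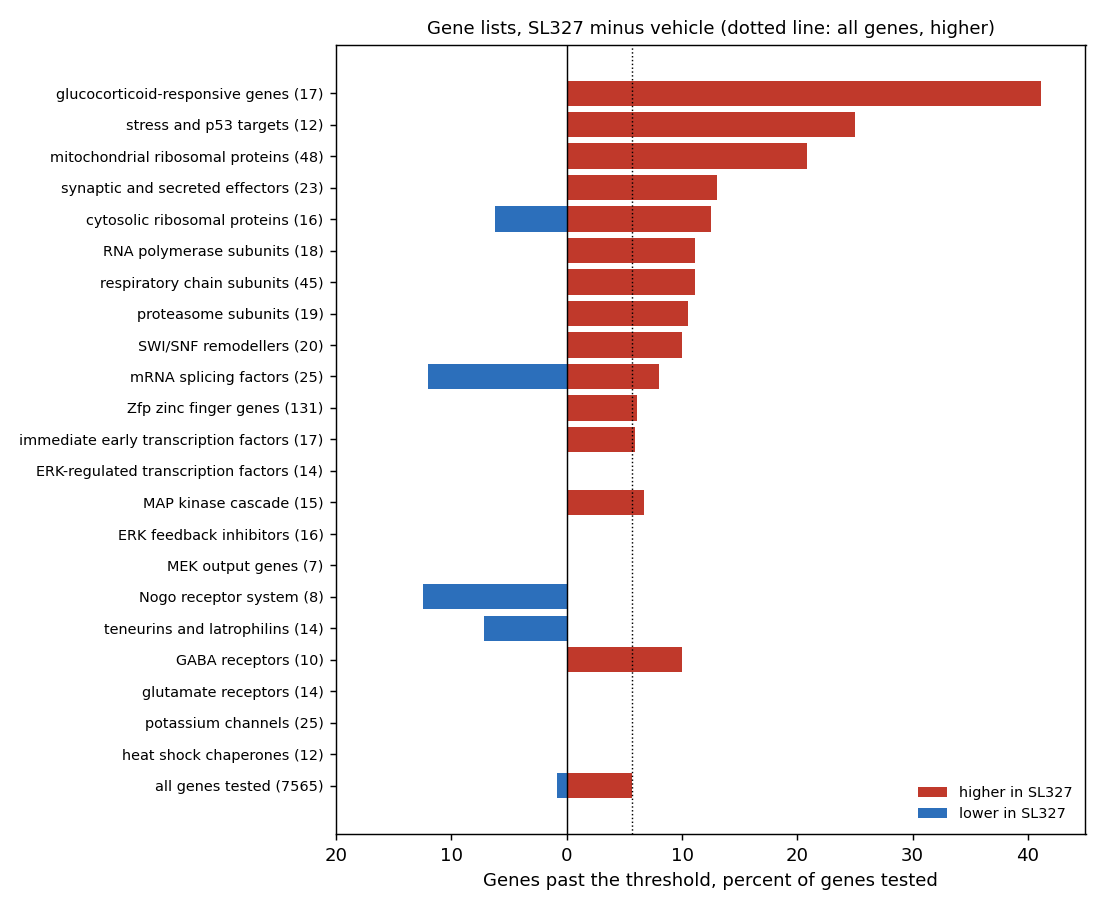
Bars give the percentage of tested genes of each list (number tested in brackets) that were higher (right) or lower (left) in SL327 than in vehicle at a limma adjusted p under 0.05. The dotted line marks the 5.66% of all 7565 genes that were higher, and the glucocorticoid-responsive list (7 of 17) reaches furthest beyond it among the lists shown. The lists were chosen with earlier results of these data known.

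Markers of hippocampal pyramidal (10) and granule cells (7) were above the intensity filter, and no cell type list had a called member. Markers of neurons (14 tested, median 0.01), interneurons (11, median 0.02), astrocytes (7, median -0.01) and microglia (6, median 0.03) lay near vehicle. Those of granule cells had a median of -0.09 (1 of 7 above vehicle), those of mural and meningeal cells 0.17 (7 of 8) and those of endothelial cells 0.11 (5 of 6), and the 1 ependymal marker differed by 0.20. All 10 tested oligodendrocyte markers were below vehicle (median -0.13, range -0.28 to -0.05). Blood markers had no tested member.

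Markers of the choroid plexus, a tissue next to the hippocampus, varied between mice of the same group. All 5 tested markers were above vehicle, by 0.68 (Folr1), 0.77 (Kl), 1.18 (Sostdc1), 1.69 (Kcnj13) and 1.85 (Ttr), and none passed (adjusted p 0.156 to 0.332). Their median per array, relative to the vehicle mean, was 0.32, 1.38 and 1.83 in SL327 mice against -0.18, 0.43 and -0.29 in vehicle mice and 1.27, 2.05, 0.42 and -0.32 in untreated mice. SL327 replicates 2 and 3 were thus high, as were untreated replicates 1 and 2, and the part of this tissue in the other differences was not tested beyond the fits given next. With this level as a covariate, chosen after the data were seen, 61 probe sets were higher and 10 lower, and 21 of the 57 called genes named here passed. Those 21 included Lsr, Polr2e, Arid2, Sik1, Ddit4, Cdkn1a, Arrdc2 and Tenm2 but not Dusp1, Mt2, Sgk1 or Per1. The differences of Dusp1 (1.21 with the covariate and 1.22 without), Sgk1 (0.32 in both fits) and Per1 (0.45 and 0.43) hardly moved, and that of Mt2 was 0.52 with the covariate and 0.69 without. That of Arc shrank, at -0.16 with the covariate and -0.64 without. So did those of Spry2 (-0.12 and -0.23), Spred1 (-0.12 and -0.18) and Dusp6 (-0.23 and -0.33). Those of Dusp4 (-0.12 in both fits) and Spry4 (-0.37 and -0.31) did not. Arc and these inhibitors were called in neither fit.

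A second effect of SL327 was measured in other mice, between SL327 with kainic acid and kainic acid alone, with no array shared. There 1114 probe sets (13.1%) were higher and 499 (5.86%) lower. Of the 467 probe sets that were higher in SL327 alone, 133 were higher there too (28.5% of them and 11.9% of the 1114), 18 were lower and 395 were above kainic acid (84.6%, beside 66.9% of all tested). Of the 71 lower ones 11 were lower there (15.5% of them and 2.2% of the 499) and 8 higher. Tmem128, Arid2, Fam169a and Lsr were higher in both settings, and Zdhhc14 and Tenm2 lower in both. Tmem128, Arid2 and Fam169a were under the intensity filter in every vehicle and untreated array. Arid2 was tested only because of the 3 arrays of SL327 alone, and the others because of arrays with the inhibitor or kainic acid. The overlap of these genes is therefore not independent of the filter. Of the 467 probe sets, 54 had no vehicle array above the filter, and its part in the counts of this paragraph was not tested. Lsr had 8.0, 8.23 and 8.21 in SL327 with kainic acid against 6.94, 6.81 and 6.79 in kainic acid (difference 1.30, SE 0.08, adjusted p 2.09e-07).

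The signal responsive genes behaved differently in the seizure setting. Dusp1 had 11.05, 10.12 and 10.69 in SL327 with kainic acid against 10.86, 11.88 and 11.88 in kainic acid (difference -0.92, SE 0.29, adjusted p 0.0373). Sik1 had 9.05, 8.83 and 8.84 in SL327 with kainic acid against 9.72, 9.99 and 9.92 in kainic acid (difference -0.97, SE 0.10, adjusted p 1.49e-05). Both genes were thus higher with the inhibitor in unstimulated mice and lower with it in mice with seizures.

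The same held for Per1 (-0.79), Cdkn1a (-0.43), Sgk1 (-0.36) and Vgf (-0.41), all of which passed the threshold there. The difference between the effects was -2.14 (SE 0.41) for Dusp1 and -1.61 (SE 0.14) for Sik1, with adjusted p values of 0.00625 and 1.37e-05 for the interaction in limma, in which 5.76% of all probe sets passed. These genes were named for their rise in SL327 alone, which is part of that difference. Mt2 (-0.21), Ddit4 (0.20) and Arrdc2 (-0.10) did not pass in the seizure setting.

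**Figure D5:**
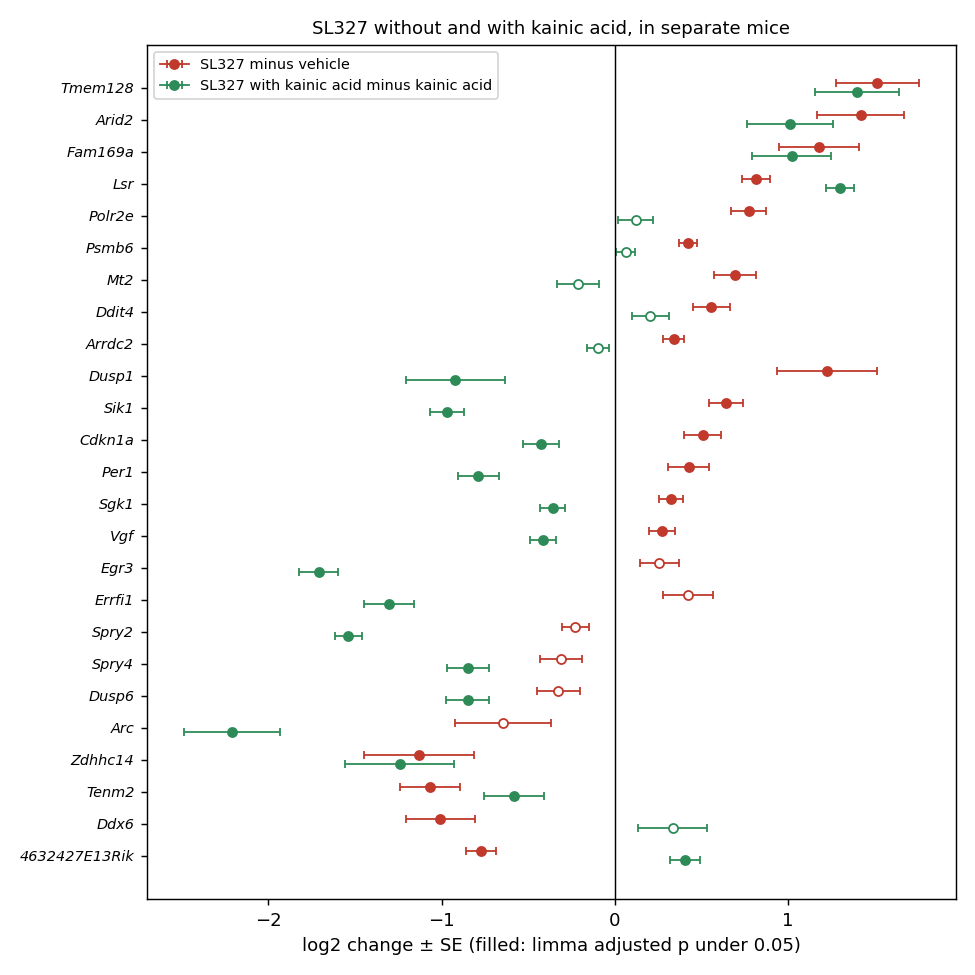
Points are log2 changes with SE for 25 genes, SL327 minus vehicle in red (n = 3 mice each) and SL327 with kainic acid minus kainic acid in green (n = 3 mice each), filled where the limma adjusted p is under 0.05. Dusp1, Sik1, Cdkn1a, Per1, Sgk1 and Vgf lie right of 0 in red and left of it in green, while Tmem128, Arid2, Fam169a and Lsr lie right of 0 in both.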

How the data were processed

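RNA of the hippocampus was hybridized to Affymetrix Mouse Exon arrays, 1 mouse each. The deposited values are log2 intensities that the authors made by RMA with the oligo package, whose versions and genome build are not given in the sources used here, and they were used without further normalization. Of 20372 probe sets 14704 had 1 gene name in the platform annotation, 713 several and 4955 none. Annotated probe sets above the median of all annotated ones in at least 3 arrays were tested (8520 probe sets, 7565 genes). A gene in a list is represented by its tested probe set of highest mean. Group means of the 5 treatments were fitted in R 4.3.3 with limma 3.58.1 (11 residual and 3.2 prior degrees of freedom), tests were two-sided, and p was adjusted by Benjamini and Hochberg over all probe sets tested. The number of arrays limits the precision.

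The comparison, the 45 gene lists and the tests were chosen with earlier results of these data known. Named genes are the 15 largest rises and 15 largest falls whose arrays do not overlap, up to 6 genes per list, and genes of the study and of the cascade. Other genes named, such as single markers, were chosen after their values were seen.

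Alternatives were other or no filters, testing unnamed probe sets, centring, quantile normalization, other sets of groups, other controls, trended or robust moderation, a replicate block, 1 probe set per gene, a stricter threshold and each array left out. The choroid plexus covariate, centring on the probe sets tested and the fit without SL327 replicates 2 and 3 were added with the data in view. The script was tested on simulated data. Promoter windows and motifs came from RefSeq (GRCm38.p6).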

Additional observations from a re-analysis of the deposited data

Results flagged for a closer look

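Of the 72 genes named with values, 27 had an effect of SL327 that differed between mice with and without kainic acid by the interaction test in limma (adjusted p under 0.05), against 5.76% of all probe sets. Many of the 72 were chosen for their change in SL327 alone, which is a term of this difference, so the count is a description and nothing is read from its size. The differences, given as the change with kainic acid minus the change without it on the log2 scale, were -2.14 for Dusp1, -0.68 for Lyrm9, -0.65 for Polr2e, -1.20 for Ccn2, -0.90 for Mt2, -0.44 for Arrdc2, -0.93 for Cdkn1a, -0.68 for Sgk1, -1.21 for Per1, -1.72 for Errfi1, -1.61 for Sik1, -0.68 for Vgf, -1.01 for Srf, -0.81 for Egr1, -1.97 for Egr3, -0.80 for Gabra3 and -0.36 for Psmb6 among genes above vehicle in SL327 alone. They were -1.31 for Spry2, -0.62 for Dusp4 and -1.56 for Arc among genes that were below vehicle and lay further below kainic acid alone in the second setting. They were 0.48 for Lsr, 1.34 for Ddx6, 1.18 for 4632427E13Rik, 1.03 for 2900026A02Rik, 0.56 for Gm5088, 0.62 for Zeb2 and 0.30 for Mknk1, of which Lsr was higher in both settings and the others were below vehicle in SL327 alone. The adjusted p values ranged from 1.37e-05 for Sik1, Spry2 and Egr3 to 0.0362 for Gm5088.

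In untreated mice 1 array stood apart for 2 of these 72 genes, and chance flags about 5% of such groups. For Ndufa9 untreated replicate 2 lay above the others, which were at 9.87 (gap 0.961 of the range). For Zdhhc14 untreated replicate 2 had 8.38 against 8.01 to 8.07 (gap 0.839 of the range).

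Probe sets without a gene name were outside the report. Of 1862 above the filter, 40 (2.15%) were higher and 32 (1.72%) lower in SL327 than in vehicle in limma when all 10382 probe sets were tested together. Their changes reached 2.21 and -1.23.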

How the results depend on the processing

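No value of the 72 named genes changed direction under any alternative. Of 1353 values of the 57 called genes 939 stayed past the threshold and 414 did not, and of 357 values of the 15 others 15 passed it. For SL327 minus vehicle, 467 probe sets were higher and 71 lower. These numbers were 344 and 116 with arrays centred on the median of all deposited values, 281 and 142 after quantile normalization, 231 and 173 with centring on the probe sets tested, 619 and 113 with the groups of the contrast only, and 48 and 9 at a threshold of 0.01. They were 305 and 136 with untreated mice as the control, 571 and 186 with both controls pooled, and 221 and 48 when a call was required against each control. They were 61 and 10 with the choroid plexus covariate, and 3 and 0 without SL327 replicates 2 and 3, where 1 SL327 array is left and is assumed to vary like the other groups. With 1 array left out they ranged from 87 to 293 and from 9 to 60.

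For SL327 with kainic acid minus kainic acid, 1114 were higher and 499 lower. The higher ones numbered 538 with the groups of the contrast only and 651 with centring on the probe sets tested, and at a threshold of 0.01 there were 352 higher and 300 lower. With 1 array left out 482 to 1313 were higher and 359 to 495 lower. Vehicle minus untreated had 0 calls throughout. The causes were not tested.

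Mice were not treated as paired by replicate number. The deviations of same-numbered SL327 and vehicle arrays correlated at -0.13, 0.09 and 0.09. With so few arrays this cannot show whether same-numbered mice were handled together. With the replicate block 357 were higher and 50 lower. The number of arrays, 3 per group, limits how small a change can pass.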
